A study of Mus musculus with 474 samples.

Results

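Gene expression in skeletal muscle was compared between the mice with the highest and the mice with the lowest Myog transcript. Diversity Outbred mice are an outbred stock bred from several inbred founder strains, and no animal shares its founder genome mosaic with another. The series holds 1 muscle RNA-seq library per mouse (gastrocnemius, according to the methods). All of them, in both arms compared here, ate the same diet, labelled 45 percent fat and described in the methods as high in fat and sugar, and the methods give an age of 22 weeks. Sex and a title number (17, 18, 19, 21 or 23), which is taken to be the generation of outbreeding, made 10 groups of 45 to 50 animals. The methods name generations 18, 19 and 21 but not 17 or 23, so this reading of the title number is uncertain. The animals were selected on Myog itself: in each group the libraries were ranked by its deposited score, the 5 highest were taken as Myog-high and the 5 lowest as Myog-low. This gave 50 Myog-high and 50 Myog-low animals, together 21.1% of the series, and left 78.9% that were neither. No animal received a treatment that set it in an arm, so the arms differ in whatever varies with Myog among untreated animals of a group.

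Myog encodes myogenin, a basic helix-loop-helix transcription factor that drives the differentiation of myoblasts into muscle fibres together with Myod1, Myf5 and Myf6. In adult muscle it is known to rise after loss of the nerve, when it takes part in the induction of acetylcholine receptor genes such as Chrna1, and Runx1 is another transcription factor known to rise in denervated muscle. Immediate early genes are transcription factors and signalling regulators whose transcripts rise quickly and briefly after calcium, cyclic AMP or stress signals.

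Upstream sequences of Myog and of 5 genes called higher in the Myog-high animals are shown to place the letters of known response elements beside genes described further on. They are the 250 bases before the RefSeq start (GRCm38.p6), read 5′ to 3′ along the gene's strand, and the genes other than Myog were picked because the letters searched are in the window. Capitals in Myog (chr1:134289754-134290003, plus strand) mark CTATATTTA, letters of the kind bound by MEF2 factors, and CANNTG, the E-box read by myogenic factors.
Myog: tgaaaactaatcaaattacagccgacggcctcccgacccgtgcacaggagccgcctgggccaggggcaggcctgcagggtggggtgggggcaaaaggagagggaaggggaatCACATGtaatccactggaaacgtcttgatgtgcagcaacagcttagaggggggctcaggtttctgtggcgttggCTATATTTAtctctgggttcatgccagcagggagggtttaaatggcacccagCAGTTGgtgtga
Capitals in Slc25a25 (chr2:32424067-32424316, minus strand) and in Btg2 (chr1:134079156-134079405, minus strand) mark TGACGTCA, the cyclic AMP response element.
Slc25a25: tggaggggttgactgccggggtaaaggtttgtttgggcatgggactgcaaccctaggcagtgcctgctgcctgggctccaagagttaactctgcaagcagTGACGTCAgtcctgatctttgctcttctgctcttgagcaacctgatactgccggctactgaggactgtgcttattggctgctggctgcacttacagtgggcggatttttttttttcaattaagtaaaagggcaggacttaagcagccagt
Btg2: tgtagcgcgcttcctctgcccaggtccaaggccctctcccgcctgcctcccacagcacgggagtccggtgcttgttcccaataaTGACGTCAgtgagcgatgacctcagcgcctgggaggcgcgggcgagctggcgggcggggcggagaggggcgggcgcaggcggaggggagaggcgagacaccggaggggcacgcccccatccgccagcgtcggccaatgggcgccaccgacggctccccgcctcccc
Capitals in Nr4a1 (chr15:101266596-101266845, plus strand) and in Nr4a2 (chr2:57124004-57124253, minus strand) mark TGACG on either strand, the shorter form of that element and a part of it.
Nr4a1: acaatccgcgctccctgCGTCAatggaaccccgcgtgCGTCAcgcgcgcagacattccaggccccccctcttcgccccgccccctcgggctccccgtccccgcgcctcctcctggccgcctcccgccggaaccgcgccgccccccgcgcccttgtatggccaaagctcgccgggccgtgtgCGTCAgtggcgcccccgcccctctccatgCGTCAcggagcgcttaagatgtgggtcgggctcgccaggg
Nr4a2: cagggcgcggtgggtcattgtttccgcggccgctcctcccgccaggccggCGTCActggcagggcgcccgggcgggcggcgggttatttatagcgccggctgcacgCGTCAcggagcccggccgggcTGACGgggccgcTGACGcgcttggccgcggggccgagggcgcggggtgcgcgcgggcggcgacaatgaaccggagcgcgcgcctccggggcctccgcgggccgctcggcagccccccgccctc
Capitals in Hspa1b (chr17:34959239-34959488, minus strand) mark GAANNTTC, the core of a heat shock element.
Hspa1b: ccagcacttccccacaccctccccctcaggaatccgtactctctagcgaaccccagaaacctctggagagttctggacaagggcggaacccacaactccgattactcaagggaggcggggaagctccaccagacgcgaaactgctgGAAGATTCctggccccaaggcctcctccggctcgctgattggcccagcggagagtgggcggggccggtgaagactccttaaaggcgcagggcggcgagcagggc

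Both strands were searched in the same 250 bases of all 32851 RefSeq promoters. TGACGTCA was present in 1.55% of them, TGACG in 17.8%, GAANNTTC in 6.69%, CANNTG in 66.2% and CTATATTTA in 0.186%. Of the 10 genes most like Myog, described further on, 7 had an entry, and TGACGTCA was present in 1 of these, TGACG in 3, GAANNTTC in 2, CANNTG in 3 and CTATATTTA in 0. Slc25a25 has several RefSeq starts, of which 1 holds the element. Sik1, Hspa8 and Hsp90aa1 had no entry.

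The values of Myog chose the animals and are given as a description. Myog (ENSMUSG00000026459) lies at chr1:134289989-134292548 on the plus strand (GRCm38), and no other deposited gene overlaps it. In CPM (counts scaled to a common library total), Myog ran from 11.6 over a median of 26.7 to 86.8 in the 50 Myog-high libraries and from 1.14 over a median of 2.99 to 6.88 in the 50 Myog-low libraries. The remaining libraries ran from 2.70 over a median of 8.16 to 31.8 CPM, so they overlapped both arms across groups. Myog was higher in females, with 39.0 CPM ± 14.5 (SD, n = 25) in Myog-high females against 18.8 ± 3.94 (SD, n = 25) in Myog-high males, and 5.15 ± 1.08 (SD, n = 25) against 2.21 ± 0.438 (SD, n = 25) in the Myog-low arm. At the limit of the rule, the fifth highest library of a group lay 0.0092 to 0.310 score units above the sixth, and the fifth lowest lay 0.0109 to 0.227 units below the sixth lowest. The arms are therefore the ends of a continuous range.

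**Figure D1:**
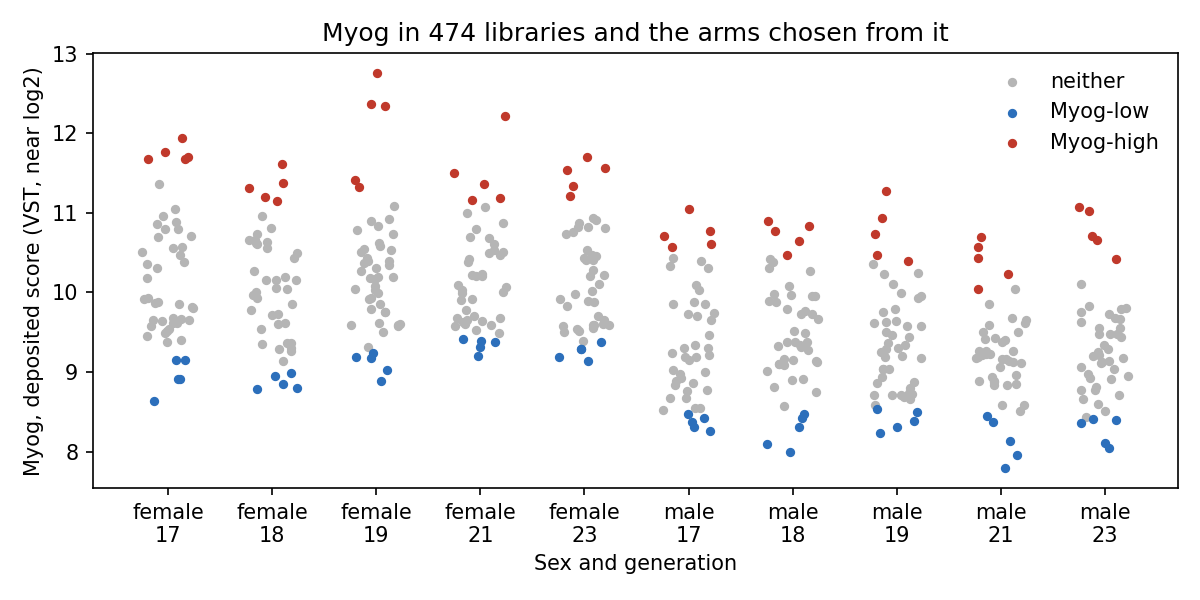
Each point is a library, the x axis gives the sex and generation, and the y axis gives the deposited variance-stabilised score of Myog, which is close to log2. Red points are the 5 highest and blue points the 5 lowest of each group, and grey points are all other libraries. The highest points of the female groups lie above those of the male groups of the same generation.

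Depth did not differ between the arms by the test used. Total counts were 81.6 M ± 17.5 (SD, n = 50) in Myog-high and 80.5 M ± 15.3 (SD, n = 50) in Myog-low libraries (permutation test within the 10 groups, 2-sided, p = 0.765, adjusted p = 0.826 over 4 measures), and mitochondrial transcripts took 10.5% ± 1.88 and 10.9% ± 2.02 of the counts (permutation p = 0.222, adjusted p = 0.513). In 2 Myog-high libraries (DO153 and DO193) the sex-linked RNA went against the sex label, and counts without such libraries are given beside the gene groups whose count they changed. Since whole muscle was sequenced, a change in the number of cells of a type and a change in RNA per cell cannot be told apart.

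Across all genes other than Myog, 3.04% of 18535 differed between the arms at an adjusted p under 0.05 (edgeR quasi-likelihood test with the 10 groups as covariate, Benjamini-Hochberg adjustment). The wave of animals, a covariate in the methods, was not in the labels used here and is not in the model. Of the genes tested, 1.78% were higher (330 genes) and 1.26% were lower in the Myog-high animals. The share of the calls that were higher, 58.6%, changed with the setting and was 38.1% without generation 17, 48.2% in DESeq2, 49.7% with the 10 highest and 10 lowest animals of each group and 70.4% without generation 19. The differences were small, with a median size of 0.31 on the log2 scale, and 133 genes (0.718%) differed by at least 1.5-fold, 51 of them higher and 82 lower. No gene had arms that did not overlap. Without the libraries whose sex-linked RNA went against the label, and with the groups ranked again, 2.36% of the genes were called. Within females alone 60 genes and within males alone 76 genes were called. Leaving out generation 19, 21 or 23 lowered the share called to 1.31%, 1.78% and 1.16%.

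The genes that gave their names to the denervation question did not pass the test. Chrna1, the alpha subunit of the muscle acetylcholine receptor, ran from 8.71 over a median of 15.8 to 21.8 CPM in Myog-high and from 7.01 over a median of 14.2 to 22.3 CPM in Myog-low libraries. The ranges of Chrna1 overlapped almost completely, and the log2 difference was 0.14 ± 0.06 (SE, adjusted p = 0.22), with an unadjusted 95% interval from 0.02 to 0.26. Runx1 ran from 1.38 over a median of 3.46 to 8.49 CPM in Myog-high and from 1.81 over a median of 3.10 to 10.6 CPM in Myog-low libraries. Its highest library was a Myog-low one, and the log2 difference was 0.12 ± 0.09 (SE, adjusted p = 0.59, interval from -0.07 to 0.31). Among the animals that were neither high nor low, the slope on Myog was 0.03 ± 0.03 (SE, adjusted p = 0.75) for Chrna1 and 0.02 ± 0.06 (SE, adjusted p = 0.92) for Runx1, in log2 units per score unit of Myog.

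None of the 5 acetylcholine receptor subunit genes passed the test in edgeR, beside 3.04% of all genes (2 at an unadjusted p under 0.05, and none in DESeq2 or in limma on the deposited scores). Their median log2 difference was 0.14, beside a median of -0.00 over all genes tested. Chrnb1 averaged 40.9 CPM ± 9.40 (SD) in Myog-high and 36.5 ± 9.05 (SD) in Myog-low animals (adjusted p = 0.19), and the embryonic subunit Chrng was near its floor in both arms, at 0.0996 and 0.0852 CPM. Of the 17 tested genes of the neuromuscular junction, which include Musk, the receptor kinase that gathers acetylcholine receptors, 0 passed in edgeR, beside 3.04% of all genes (3 at an unadjusted p under 0.05). At that share, lists as short as these can hold 0 called genes without differing from other genes. Musk averaged 33.3 CPM ± 13.99 (SD) and 31.2 ± 17.9 (SD) in the arms (adjusted p = 0.55), and Ncam1, an adhesion molecule known to spread along denervated fibres, averaged 10.1 ± 2.38 (SD) and 9.92 ± 2.00 (SD) CPM.

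The other myogenic factors did not pass either. Myod1 ran from 5.14 over a median of 12.7 to 40.6 CPM in Myog-high and from 3.53 over a median of 9.16 to 29.8 CPM in Myog-low libraries, with a log2 difference of 0.31 ± 0.13 (SE, adjusted p = 0.21). With the 10 highest and 10 lowest animals of each group it was 0.29 ± 0.09 (SE, adjusted p = 0.025). Myf5 averaged 1.07 and 1.08 CPM in the arms, and Myf6, the factor most abundant in adult fibres, averaged 79.9 ± 24.3 (SD) and 76.7 ± 28.7 (SD) CPM (adjusted p = 0.65). In the list of myogenic factors 0 of 7 genes passed in edgeR (1 at an unadjusted p under 0.05), and in the list of embryonic genes, among them the developmental myosins Myh3 and Myh8, 0 of 6 passed (1 at an unadjusted p under 0.05). Of 17 satellite cell and fusion genes, 1 passed (5.88%, beside 3.04% of all genes), Pax3, at a log2 difference of -1.14 ± 0.32 (SE, adjusted p = 0.028) on levels of 0.0815 and 0.173 CPM, while Pax7, which marks satellite cells, averaged 1.65 and 1.69 CPM (adjusted p = 0.91). The Pax3 call was lost without the libraries of mismatched sex.

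Of 24 genes known from denervated or wasting muscle, a list that also holds Runx1 and Ncam1, 3 were higher and 0 lower in the Myog-high animals, which is 12.5% beside 3.04% of all genes, with a median log2 difference of 0.07. A positive difference was found in 17 of the 24 genes and a negative one in the others. The number higher was 2 without the libraries of mismatched sex, 1 without lymphocyte-rich libraries (defined further on), 1 in females alone and 0 in males alone (edgeR, 2 at an unadjusted p under 0.05 in males). The 3 were Hdac4, a class II histone deacetylase known to act upstream of Myog after denervation, at 0.22 ± 0.05 (SE, adjusted p = 0.0023), Cdkn1a, an inhibitor of the cell cycle, at 0.46 ± 0.12 (SE, adjusted p = 0.022), and Tnfrsf12a, the receptor of the cytokine TWEAK, at 0.43 ± 0.12 (SE, adjusted p = 0.030), a call lost in 10 of 20 alternative settings. The Cdkn1a call was lost in 6 of the 20. Gadd45a, a stress gene induced by denervation, ran from 4.85 over a median of 26.9 to 59.6 CPM in Myog-high and from 5.19 over a median of 19.6 to 47.2 CPM in Myog-low libraries (log2 difference 0.51 ± 0.17, SE, adjusted p = 0.081). The ubiquitin ligases of muscle wasting, Trim63 and Fbxo32, had log2 differences of 0.28 ± 0.13 (SE, adjusted p = 0.28) and -0.08 ± 0.11 (SE, adjusted p = 0.79).

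Sik1, a salt-inducible kinase whose transcript responds to cyclic AMP, ran from 34.9 over a median of 68.2 to 147 CPM in Myog-high and from 13.04 over a median of 30.3 to 135 CPM in Myog-low libraries. All 50 Myog-high libraries lay above the Myog-low median of Sik1, and the log2 difference was 1.09 ± 0.11 (SE, adjusted p = 1.9e-11, higher in 10 of 10 groups). Slc25a25, a carrier of ATP-magnesium and phosphate in the inner mitochondrial membrane, ran from 120 over a median of 294.7 to 455.7 CPM in Myog-high and from 30.8 over a median of 114 to 299.1 CPM in Myog-low libraries. Its log2 difference was 1.27 ± 0.14 (SE, adjusted p = 1.3e-10, higher in 10 of 10 groups). Tob2, an antiproliferative factor of the Tob and BTG family, averaged 176 CPM ± 31.9 (SD) against 102 ± 47.5 (SD), and differed by 0.83 ± 0.10 on the log2 scale (SE, adjusted p = 2.4e-09). Pim1, a serine/threonine kinase, rose by 0.92 ± 0.15 (SE, adjusted p = 3.3e-05) and Rasd1, a small GTPase induced by glucocorticoids, by 1.01 ± 0.20 (SE, adjusted p = 0.00064) on the log2 scale.

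**Figure D2:**
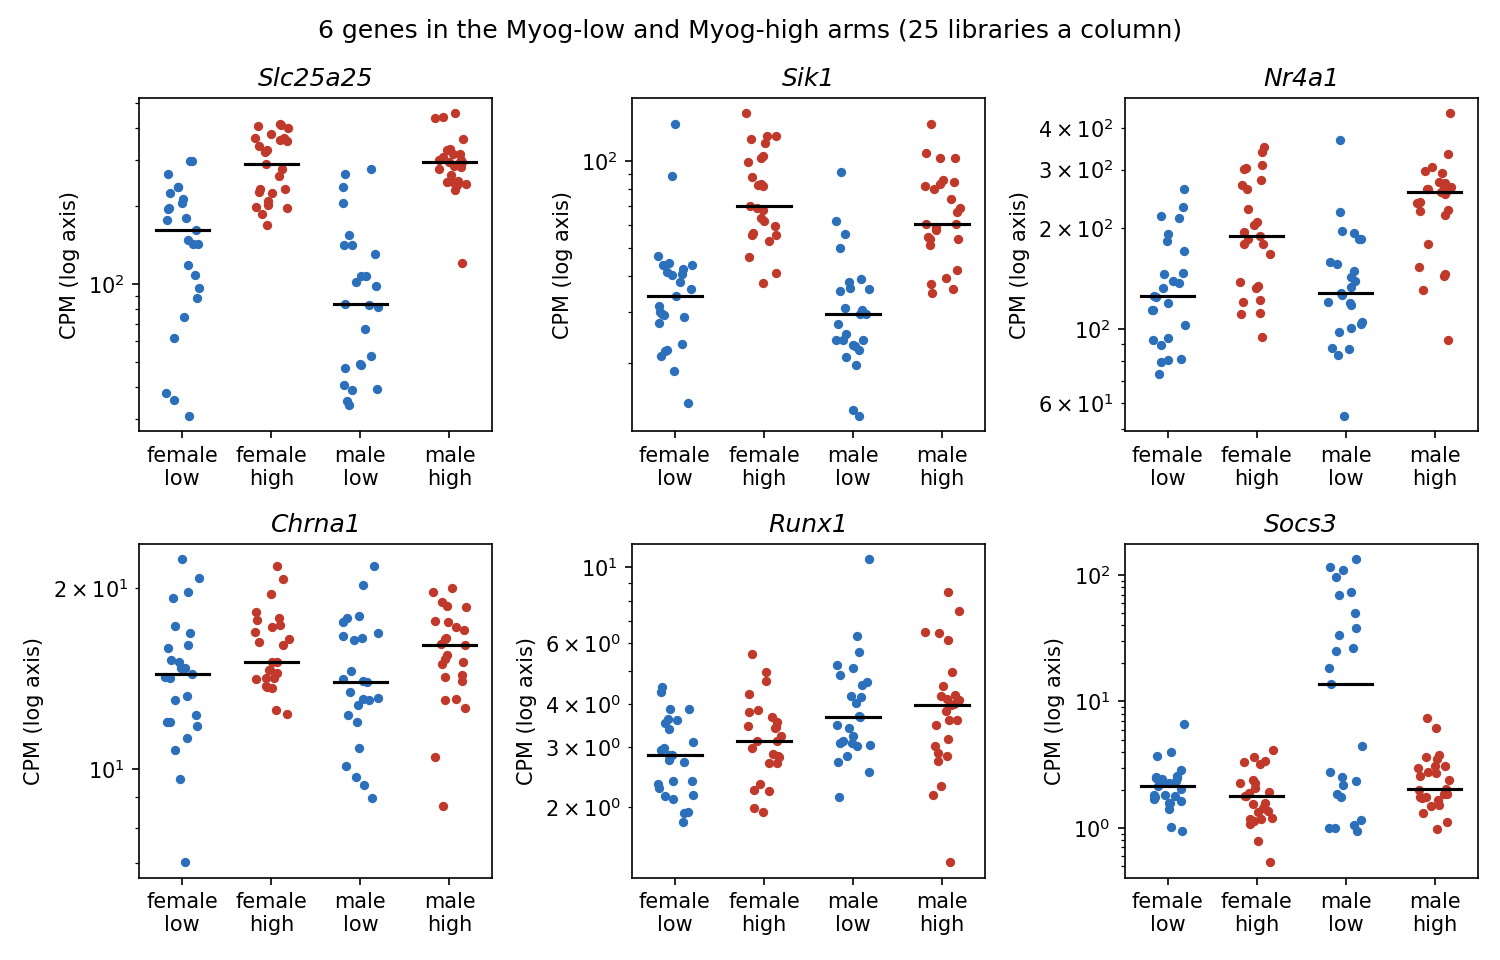
Each panel plots 1 gene in CPM on a log axis, each point is a library, columns are sex and arm (25 libraries each), and bars are medians. Slc25a25, Sik1 and Nr4a1 are higher in the Myog-high columns of both sexes, Chrna1 and Runx1 overlap, and Socs3 is high in part of the Myog-low males, up to 133 CPM.

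Among 17 immediate early genes, 9 rose and 0 fell, which is 52.9% beside 3.04% of all genes, with a median log2 difference of 0.47 beside -0.00 over all genes. Nr4a1 and Nr4a2 encode orphan nuclear receptors. Nr4a1 ran from 92.8 over a median of 227.1 to 442.5 CPM in Myog-high and from 54.7 over a median of 127 to 367.2 CPM in Myog-low libraries, with a log2 difference of 0.66 ± 0.10 (SE, adjusted p = 2.2e-06). Nr4a2 differed by 1.27 ± 0.21 (SE, adjusted p = 6.3e-05) and the related Nr4a3 by 0.77 ± 0.20 (SE, adjusted p = 0.012). Of the AP-1 subunits, Fosl2 rose by 0.69 ± 0.09 (SE, adjusted p = 2.7e-07), Jun by 0.44 ± 0.08 (SE, adjusted p = 6.5e-05), Junb by 0.78 ± 0.17 (SE, adjusted p = 0.0025) and Fosb by 1.04 ± 0.29 (SE, adjusted p = 0.028). The Fosb call was lost in 7 of 20 alternative settings. Fos itself averaged 38.7 CPM ± 36.9 (SD) and 25.2 ± 23.7 (SD) and did not pass (adjusted p = 0.18), nor did Egr1 (adjusted p = 0.22). The remaining genes that rose were Atf3 (0.69 ± 0.19, SE, adjusted p = 0.028) and Egr2 (0.50 ± 0.15, SE, adjusted p = 0.037), calls lost in 9 and 12 of 20 alternative settings. Without the libraries in which Socs3 exceeded 20 CPM, 6 of the 17 rose, with scores for cell types and fibre types in the model 5 rose, and without the libraries of mismatched sex 8 rose. Females alone gave 3 and males alone 4.

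Chaperone genes formed the next group. The list, whose members were taken from their symbols after values had been seen, held 67 tested heat shock and J-domain genes, of which 11 rose and 0 fell, which is 16.4% beside 3.04% of all genes, with a median of 0.04. In females alone 8 of 66 rose and in males alone 1 of 66 (edgeR, 18 and 16 at an unadjusted p under 0.05). Whether the sexes differ was not tested for the list. Hspa8, the constitutive 70-kDa chaperone, ran from 961 over a median of 1359 to 1987 CPM in Myog-high and from 816 over a median of 1072 to 1521 CPM in Myog-low libraries, with a log2 difference of 0.36 ± 0.05 (SE, adjusted p = 8.6e-08). Dnajb1, its stress-induced J-domain partner, rose by 0.93 ± 0.17 (SE, adjusted p = 0.00036), Hsp90aa1 by 0.53 ± 0.11 (SE, adjusted p = 0.0022) and Dnaja1 by 0.39 ± 0.08 (SE, adjusted p = 0.0019). Hspa1a and Hspa1b, the inducible pair, rose by 1.08 ± 0.26 (SE, adjusted p = 0.0086) and 1.07 ± 0.28 (SE, adjusted p = 0.016), but they are near-identical copies whose reads the counting may have divided, so their separate values are uncertain. Their calls were lost in 3 and 6 of 20 alternative settings.

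Hormone and clock genes moved in part. Of 12 genes known to respond to glucocorticoids, 2 rose and 0 fell (16.7%, beside 3.04% of all genes), Tsc22d3 by 0.45 ± 0.07 (SE, adjusted p = 2.8e-06) and the kinase gene Sgk1 by 0.48 ± 0.08 (SE, adjusted p = 6.7e-05), and the list's median was 0.19. The number that rose was 5 without the libraries in which Socs3 exceeded 20 CPM and 4 in limma on the deposited scores. Of 15 clock genes, 13.3% were called beside 3.04% of all genes. Per1, a period gene that also answers cyclic AMP and glucocorticoids, rose by 0.60 ± 0.11 (SE, adjusted p = 0.0005) and the repressor Ciart by 0.59 ± 0.17 (SE, adjusted p = 0.036), with a median of 0.00 over the list. The Ciart call was lost in 11 of 20 alternative settings, among them the fit without the libraries of mismatched sex. Ddit4, a stress-induced inhibitor of mTORC1, rose by 0.84 ± 0.25 (SE, adjusted p = 0.042), a call lost in 8 of 20 alternative settings.

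**Figure D3:**
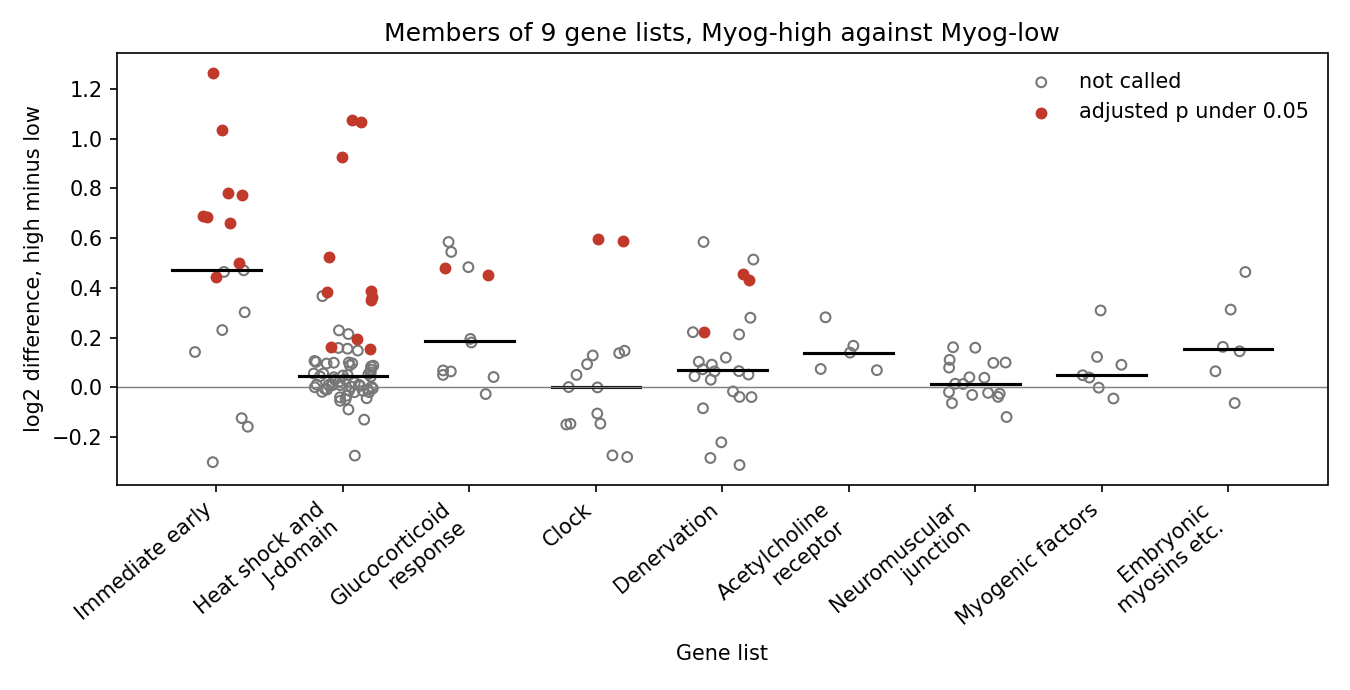
Each point is a gene of the list on the x axis, the y axis gives its log2 difference between the arms (Myog-high minus Myog-low), red points have an adjusted p under 0.05 and bars are list medians. The immediate early list has 9 red points and the heat shock list 11, and the acetylcholine receptor, junction, myogenic factor and embryonic lists have none.

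Kcnj2, the inward rectifier potassium channel Kir2.1, was among the genes that fell. It ran from 15.2 over a median of 36.1 to 64.6 CPM in Myog-high and from 27.1 over a median of 59.2 to 113 CPM in Myog-low libraries, and 2 of the 50 Myog-high libraries lay above the Myog-low median. The log2 difference was -0.72 ± 0.10 (SE, adjusted p = 5.2e-07, lower in 10 of 10 groups). Of 16 genes of excitation and contraction, 2 fell (12.5%, beside 3.04% of all genes called in either direction), Kcnj2 and the voltage-gated channel gene Kcna7 (-0.18 ± 0.04, SE, adjusted p = 0.0056). Id2, an inhibitor of helix-loop-helix factors, fell by 0.34 ± 0.10 (SE, adjusted p = 0.031) and Acvr1b, a receptor of myostatin and activin, fell by 0.25 ± 0.06 (SE, adjusted p = 0.012) on the log2 scale. The calls of Id2 and Acvr1b were lost in 7 and 5 of 20 alternative settings.

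Falls of Socs3 and Socs1, inhibitors of cytokine signalling, were found in males. Socs3 ran from 0.533 over a median of 1.88 to 7.37 CPM in Myog-high and from 0.939 over a median of 2.40 to 133 CPM in Myog-low libraries. In Myog-low males its median was 13.8 CPM and in Myog-low females 2.13 CPM, and the arm-by-sex difference passed the test (adjusted p = 0.00096), as it did for Socs1 and Frat2. In all, 4 genes (0.0216% of 18535) passed this test in edgeR, and 0 passed in limma on the deposited scores (3.77% of genes at an unadjusted p under 0.05). Socs3 exceeded 20 CPM in 28 libraries (5.91% of the series), 27 male and 1 female, of which 11 were Myog-low, 0 Myog-high and 17 neither. Cited2, a coregulator bound to CBP and p300, and Frat2, which binds the kinase GSK3, fell by 0.83 ± 0.16 (SE, adjusted p = 0.00047) and 0.82 ± 0.14 (SE, adjusted p = 6.5e-05) on the log2 scale. The log2 differences were -1.36 and -1.43 in males and -0.30 and -0.23 in females, and of this pair Frat2 passed the arm-by-sex test while Cited2 did not (adjusted p = 0.70).

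Several of the largest falls by size were in genes of lymphocytes. Ighd, the heavy chain of IgD on B cells, averaged 0.504 CPM ± 2.25 (SD) and 2.30 ± 5.995 (SD) at medians of 0.0519 and 0.148. The summed level of 11 lymphocyte genes, chosen after values had been seen, ran from 0.350 to 75.6 CPM (median 0.950) in Myog-high and from 0.581 to 175 CPM (median 1.44) in Myog-low libraries, and it exceeded 10 CPM in 2 Myog-high, 10 Myog-low and 20 other libraries. Of the list, 9 of 11 genes fell (81.8%, beside 3.04% of all genes), 4 fell without the libraries of mismatched sex, 1 fell with scores for cell types and fibre types in the model, and 0 passed in limma on the deposited scores (9 at an unadjusted p under 0.05). In edgeR, 0 of 8 with a value passed in females alone and 0 of 9 in males alone (8 and 9 at an unadjusted p under 0.05). Over all genes 1.82% were called without the libraries above 10 CPM, and the immediate early count was then 8 of 17 higher and the chaperone count 9 of 67 higher and 1 lower. Ikzf1 and Tcf7, transcription factors of lymphocytes, and the kinesin gene Kif21b, which starts within 4 Mb of Myog, are among the 10 largest falls, but the calls were lost in 12, 12 and 15 of 20 alternative settings. Fabp3-ps1, a pseudogene of the fatty acid-binding protein gene Fabp3, had medians of 0.591 and 0.610 CPM and a highest value of 226.5 and 267.1 CPM, and its reads may be shared with the parent gene. Gm6457 and Rps2-ps10, both among the largest rises, have the same limit. The medians of Gm6457 were 0.0585 and 0 CPM, and those of Rps2-ps10 were 0.994 and 0.862 CPM with a highest Myog-high library of 55.7 CPM.

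Few markers of other tissue components passed the test. Of 12 macrophage genes, 0 passed in edgeR (1 at an unadjusted p under 0.05), with a summed level from 45.5 to 201 CPM in Myog-high and from 71.5 to 200 CPM in Myog-low libraries. Of 10 adipocyte genes, 0 passed (2 at an unadjusted p under 0.05), with a median of -0.32 and summed levels from 420.3 to 2288 CPM and from 419.2 to 1810 CPM. Of 10 slow-fibre and 12 fast-fibre genes, 0 passed (0 and 0 at an unadjusted p under 0.05). Among 10 endothelial genes (median 0.05, 20% called beside 3.04% of all genes), Flt1 and Esam rose by 0.15 and 0.16 on the log2 scale. Among 12 genes of fibro-adipogenic progenitors Ly6a rose by 0.30, which is 8.33% beside 3.04% of all genes, while 3 of the 12 had a positive difference and the median was -0.05. Of 12 Schwann cell and myelin genes, Egr2 rose (8.33% called, beside 3.04% of all genes), which is also in the immediate early list, and of 6 erythroid and 8 tendon genes 0 passed (0 and 0 at an unadjusted p under 0.05). Their part in the results on other genes was not tested beyond 1 covariate fit, which called 1.60% of the genes. Its scores covered slow-fibre, macrophage, adipocyte, fibro-adipogenic progenitor, Schwann cell and erythroid genes. Fast-fibre, endothelial, tendon and lymphocyte genes had no score in that fit. The Schwann cell score holds Egr2, so it is not separate from the immediate early genes.

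The animals that were neither high nor low are described next. The same ranking set them apart and the slope uses the same Myog score, so they are other libraries but not a measure independent of the rule. In these libraries 1.62% of 18804 genes had a slope on the Myog score that passed the test (edgeR, groups as covariate), 162 positive and 142 negative. Of the arm calls with a slope, 90.9% had the same sign, beside 63.9% of the genes that were not called. The sets shared 145 genes, which is 25.8% of the arm calls and 47.7% of the slope calls. The 10 genes with a positive slope of smallest p were Slc25a25, Sik1, Tob2, Nr4a2, Tsc22d3, Fosl2, Hspa8, Hsp90aa1, Dnaja1 and Ppp1r3c, which targets protein phosphatase 1 to glycogen. The slope was 0.51 ± 0.06 (SE, adjusted p = 1.9e-11) for Slc25a25, 0.44 ± 0.06 (SE, adjusted p = 2.2e-09) for Sik1 and 0.78 ± 0.11 (SE, adjusted p = 1.9e-08) for Nr4a2, in log2 units per score unit. Kcnj2 had a slope of -0.36 ± 0.05 (SE, adjusted p = 5.2e-08). Of the 11 lymphocyte genes, 0 had a slope that passed in edgeR (0 at an unadjusted p under 0.05).

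**Figure D4:**
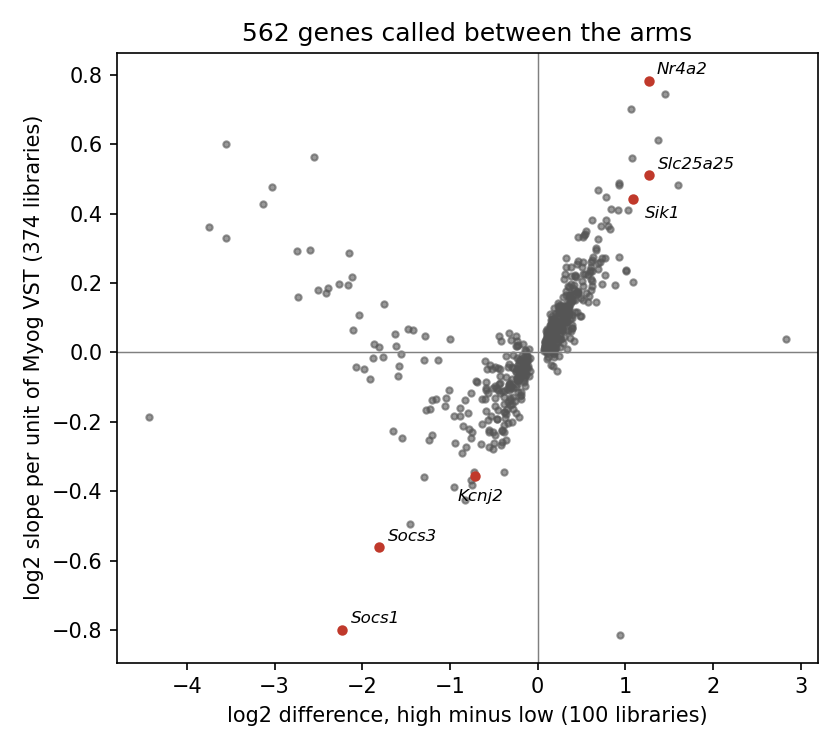
Each point is a gene called between the arms, the x axis gives its log2 difference between 50 Myog-high and 50 Myog-low libraries, and the y axis gives its log2 slope per unit of Myog score in the libraries of neither arm. The sign was the same for 90.9% of the genes, and the red points name Slc25a25, Sik1, Nr4a2, Kcnj2, Socs1 and Socs3.

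Genes near Myog were examined because founder haplotypes are inherited in long blocks, so that neighbours of a gene can vary with it. Of 121 tested genes that start within 4 Mb of Myog, 11 rose and 6 fell, which is 14.0% beside 3.04% of all genes, and without the libraries of mismatched sex 11 rose and 3 fell. In females alone 3 of 113 rose and 1 fell, and in males alone 2 of 111 rose and 0 fell. In each sex 27 had an unadjusted p under 0.05 (edgeR). Some of the called genes were near the floor in both arms. Ube2t, a ubiquitin-conjugating enzyme of the Fanconi pathway 0.67 Mb away, ran from 2.39 over a median of 4.39 to 7.41 CPM in Myog-high and from 1.78 over a median of 2.98 to 4.70 CPM in Myog-low libraries, with a log2 difference of 0.57 ± 0.07 (SE, adjusted p = 5.8e-09). Btg2, an antiproliferative immediate early gene 0.21 Mb before Myog, rose by 0.78 ± 0.16 (SE, adjusted p = 0.00081). Chil1, a secreted chitinase-like protein, rose by 0.93 ± 0.22 (SE, adjusted p = 0.0076) on means of 1.52 and 0.755 CPM. Adora1, the adenosine A1 receptor, and Mybph, a myosin-binding protein, rose by 0.93 ± 0.16 and 0.67 ± 0.20 (SE), and the Mybph call was lost in 9 of 20 alternative settings. They overlap on opposite strands and the use of strand in the counting was not stated, so their values are uncertain. Timm17a and Ipo9 fell by 0.15 and 0.09 on the log2 scale. Genotypes were not used here, so inherited and other sources of these differences cannot be told apart.

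**Figure D5:**
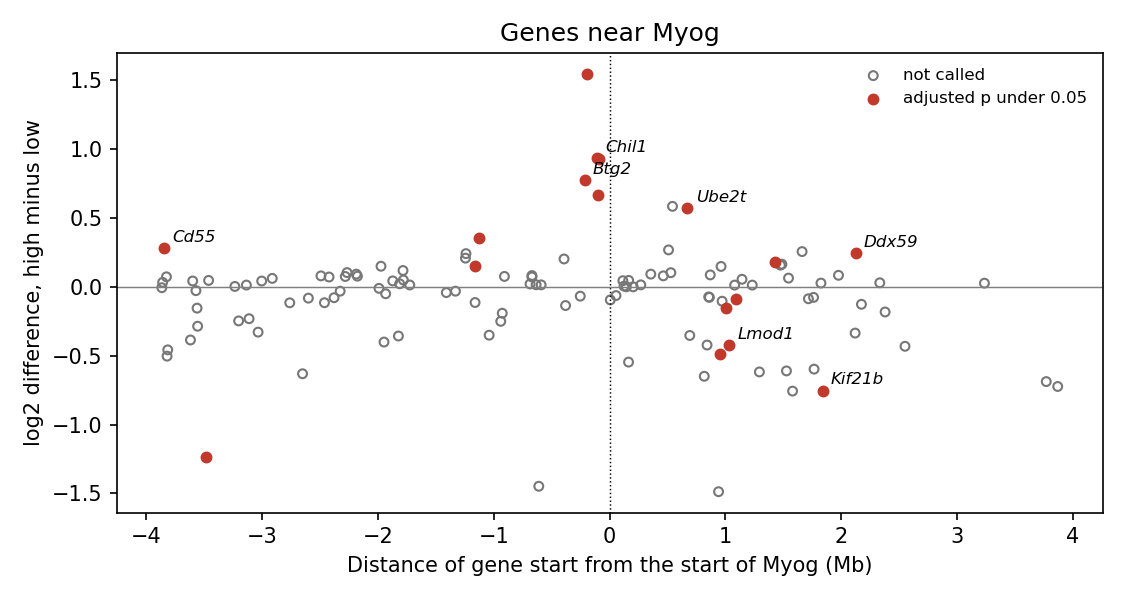
Each point is a gene that starts within 4 Mb of Myog, the x axis gives the distance of its start from that of Myog in Mb, and the y axis gives the log2 difference between the arms. The 17 red points passed the test, and Ube2t, Chil1 and Btg2 lie within 1 Mb.

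Whether the contrast differed between generations was tested by an interaction. In the arm-by-generation test of edgeR 0 of 18535 genes passed (smallest adjusted p = 0.23, 1244 genes at an unadjusted p under 0.05), and in limma on the deposited scores 0 passed (1063 genes at an unadjusted p under 0.05). In the remaining lists, 0 of 12 genes of mitochondrial biogenesis and fuel use, 0 of 20 mitosis genes and 0 of 11 polyamine genes passed in edgeR (4, 3 and 0 at an unadjusted p under 0.05). Without the libraries of mismatched sex, 1 of the 12 passed. Beside 3.04% of all genes, 7.14% of 14 imprinted genes and 12.5% of 16 genes of the ATF4 and stress response were called. Of the imprinted genes, Mirg, a noncoding transcript, rose, a call lost in 10 of 19 alternative settings, and of the stress response genes, Atf3 and Ddit4 rose, while 6 of the 16 had a positive difference and the median was -0.06. In that list 0 passed in edgeR with scores for cell types and fibre types in the model or without lymphocyte-rich libraries (7 and 6 at an unadjusted p under 0.05), and 1 rose and 1 fell without the libraries of mismatched sex. Among the 15 SOCS and STAT genes, a list chosen after values had been seen, 1 rose and 2 fell (20%, beside 3.04% of all genes). Socs1 and Socs3 fell, and Stat3, the transcription factor that induces Socs3, rose by 0.12 ± 0.03 (SE, adjusted p = 0.017) on the log2 scale. Among the groups of housekeeping and protein turnover genes, 1 of 85 cytosolic ribosomal protein genes (Rpl7l1), 0 of 37 proteasome genes and 0 of 15 mitochondrially encoded genes were called (the last pair with 1 and 2 at an unadjusted p under 0.05). The ribosomal call was lost without the libraries of mismatched sex (edgeR, 5 of 85 at an unadjusted p under 0.05).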

How the data were processed

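Per the study's methods, the authors aligned polyadenylated RNA reads to a pooled founder transcriptome, and EMASE within GBRS gave expected counts. The versions of EMASE, GBRS and DESeq2 and the use of strand are not given in the sources used here. The authors deposited these expected counts for 20612 genes, unnormalised, of which 68.6% were whole to within 1e-06, and a variance-stabilised score (VST) from DESeq2. The deposited score ranked the 474 libraries, of which 50 were Myog-high, 50 Myog-low and 374 neither. Between the arms 563 genes were called (330 higher, 233 lower), and 304 in the libraries of neither arm. Deposited gene positions matched GENCODE M21 starts in 99.5% of genes.

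Expected counts were rounded and tested in R 4.3.3 with edgeR 4.0.16 (filterByExpr, minimum count 10, which left 18536 genes, TMM, quasi-likelihood test, groups as covariate); limma 3.58.1 and DESeq2 1.42.0 were alternatives. TMM factors ran from 0.895 to 1.163. CPM were taken on the TMM-scaled total. P-values were adjusted over all genes except Myog at a threshold of 0.05. Total counts were compared with 100000 permutations within groups. Animals were separate, and within the groups of the 100 arm libraries no pair (450 compared) came closer than a mean chi-square per gene of 81.1, far above sampling noise. Library blocks are 5 stretches of library numbers in the titles. A block began after a gap of more than 3 numbers or after every 96 numbers, a cut chosen here. The labels do not state what the numbers mean. Scripts were tested on simulated data. Python 3.11.15 was used for summaries.

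Named genes were a set given whatever the result, the 10 largest rises and 10 largest falls among called genes of at least 1 CPM with the same sign in at least 8 of 10 groups, up to 4 called genes of smallest p per list, and the 10 most like Myog. Others were chosen after their values were seen: Socs1, Cd22, Lmod1, Csrp1, Pim1, Dnajb1, Nr4a3, Junb, Timm17a, Ipo9, Mybph, Stat3 and Rpl7l1. The members and lists were chosen with earlier results of these data known. Results on 2 genes are not reported here.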

Additional observations from a re-analysis of the deposited data

Results flagged for a closer look

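In 100 sets of 5 libraries (20 sets for each of 5 measures), 5 libraries stood far from the others of their set, and chance flags about 1 set in 20, which is 5. Chrna1 was 8.71 CPM in the Myog-high male DO090 of generation 17, against 16.5 in the nearest library. Sik1 was 27.4 CPM in the Myog-low female DO346 of generation 21, against 40.2 in the nearest. Slc25a25 was 96.4 CPM in the Myog-low female DO321 of generation 21, against 194 in the nearest, and 241.97 CPM in the Myog-high male DO193 of generation 18, against 281.9, a library whose sex-linked RNA went against its label. The total count was 73.9 M in the Myog-low male DO271 of generation 19, against 84.5 M in the nearest.

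The difference between the arms differed between the sexes for 4 genes by the arm-by-sex interaction of edgeR. The log2 difference in males minus that in females was -3.07 for Socs3 (adjusted p = 0.00096), -2.98 for Socs1 (adjusted p = 0.025) and -1.19 for Frat2 (adjusted p = 0.025). In limma on the deposited scores 0 genes passed this test, with 3.77% of genes at an unadjusted p under 0.05.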

How the results depend on the processing

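The share of genes called between the arms (3.04%) depended on how many animals entered and which. It was 1.31% with the 3 highest and 3 lowest of each group, 5.99% with the 10 highest and 10 lowest, 1.48% without the most extreme library on each side, 1.60% with scores for cell types and fibre types in the model and 1.82% without lymphocyte-rich libraries, the last chosen after seeing the data. Leaving out a generation gave 1.16% (without 23) to 3.14% (without 17), with 1.31% without 19 and 1.78% without 21. Females alone gave 0.339% and males alone 0.431%. Generations 17, 18, 19, 21 and 23 alone gave 0, 0.0062, 0, 0 and 0.0121% in edgeR, with 1146, 1297 and 1529 genes at an unadjusted p under 0.05 where the count was 0, and each of the 5 library blocks alone gave 0, with 774 to 1060. The smaller fits hold fewer samples, and the arms were uneven across blocks, with 5 Myog-high and 11 Myog-low libraries in block 4. With the library block as covariate in the fit of all 100 libraries, 2.60% of the genes were called. The arm-by-sex share was 0.0216% in edgeR and 0 in limma on the deposited scores (3.77% at an unadjusted p under 0.05). DESeq2 called 4.15%, limma 2.69% and ranking by CPM, which moved 14 libraries, 2.68%. Total count scaling called 2.48%, 50% of them higher, beside 58.6% with TMM, 48.2% in DESeq2, 49.7% with the 10 highest and 10 lowest, and 38.1% (without generation 17) to 70.4% (without generation 19) when a generation was left out.

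Of 60 named genes that were called, 21 passed the threshold in all 20 alternatives that kept both sexes and all or all but 1 generation, among them Sik1, Slc25a25, Nr4a1, Hspa8 and Kcnj2, and of 19 that were not called, 17 passed in none. Myod1 and Gadd45a passed with the 10 highest and 10 lowest. Reversed signs of these named called genes, none past the threshold in the fit that reversed them, came from single generations or blocks, each a log2 difference. Generation 17 gave Rps2-ps10 -0.067, Tcf7 0.81, Ikzf1 0.53, Kif21b 0.41, Cd22 0.94 and Lmod1 0.11. Generation 18 gave Cdkn1a -0.18, and generation 21 gave Ly6a -0.055 and Csrp1 -0.00918. Block 1 gave Gm6457 -0.51, Ighd 0.85, Tcf7 0.30, Ikzf1 0.45, Kif21b 0.31 and Cd22 2.27. Block 2 gave Ikzf1 0.0041. Block 3 gave Rps2-ps10 -0.041, Fabp3-ps1 0.50, Socs3 0.013, Cited2 0.71, Frat2 0.14, Atf3 -0.32, Egr2 -0.048, Mybph -0.081 and Csrp1 -0.000892. Block 4 gave Cdkn1a -0.056, Fosb -0.053, Tnfrsf12a -0.33, Acvr1b 0.030, Egr2 -0.0072 and Cd22 0.25. Block 5 gave Rps2-ps10 -0.22, Fosb -0.20, Tcf7 0.64, Btg2 -0.073 and Ipo9 0.050. The cause was not tested. A further 84 sign changes had neither fit past the threshold. No paired analysis was possible because each animal gave 1 library and the arms share no animal number.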
